A study of Mus musculus with 8 samples.

Results

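The genes described here encode the proteins of the cytosolic ribosome. They were chosen by name: every gene whose probe sets carry a single symbol made of Rpl or Rps and a number, or Rplp0 to Rplp2, without the Rps6k kinases and without pseudogene symbols. The rule found 49 genes, read by 104 probe sets, among 18193 genes on the array. Of these, 20 encode proteins of the small subunit, 22 encode proteins of the large subunit, and 7 are paralogs or other genes that share the name. A further 34 listed ribosomal protein genes, among them Rpl5, Rplp1 and Rpl3, are not read by a probe set with a single symbol and were not analysed gene by gene here. In RefSeq Rps4l is a transcribed pseudogene, and Rps19bp1 encodes a protein that binds Rps19 and is not part of the ribosome. Both match the symbol rule and were kept.

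Whole livers of 8 mice were measured, each on 1 Affymetrix expression array. In the 4 txnrd1 cond/- albCre1 livers (animals 69, 72, 73 and 81), Cre recombinase driven by the albumin promoter deletes the single conditional allele of Txnrd1, the cytosolic thioredoxin reductase, in hepatocytes. The other allele of these mice is null throughout the body, and liver cells that do not use the albumin promoter, such as endothelium and Kupffer cells, keep the conditional allele. The 4 txnrd1 cond/+ albCre0 livers (animals 70, 71, 80 and 82) carry the conditional allele beside a wild-type allele and have no Cre. Genotype, Cre and the number of germline alleles therefore cannot be told apart. All 8 were young adult males, housed singly before an afternoon harvest. The labels do not say that the animals of a genotype came from separate litters, so p-values measure the spread between these animals. Whole liver was used, so fewer cells of a type and less RNA per cell cannot be told apart.

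A ribosome joins amino acids in the order an mRNA gives. Its small subunit reads the mRNA, and its large subunit forms the peptide bond and passes the new chain out through an exit tunnel. The ribosomal proteins are made in nearly equal amounts, and their mRNAs are among the most abundant of the hepatocyte, the cell that makes most plasma proteins. Most of these mRNAs begin with a C followed by an unbroken run of C and T, the terminal oligopyrimidine (TOP) tract. Through it the mTOR kinase pathway sets how many of them are translated, which an array of total mRNA does not measure.

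RefSeq start windows (GRCm38.p6, from 250 bases before to 50 bases after an annotated start) were given for 43 of the 49 genes. Of their 51 windows, 8 (15.7%) had a C at the annotated start followed by at least 4 C or T, against 2.51% of 32851 windows of all genes. The remaining windows may have an annotated start a few bases from the cap, so a missing run says nothing of the mRNA. All 8 are shown, because the tract is what the family is best known to share. Each runs from 15 bases before the start to 15 bases from it on, and the capitals mark the run that begins at the start. The runs are 5 to 11 bases long, longest in Rpl35 and shortest in Rplp2.
Rps6, chr4:86857353-86857382 (minus strand): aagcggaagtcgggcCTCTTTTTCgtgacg
Rps10, chr17:27635230-27635259 (minus strand): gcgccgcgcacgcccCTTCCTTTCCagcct
Rps18, chr17:33955651-33955680 (minus strand): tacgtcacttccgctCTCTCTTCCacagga
Rps27, chr3:90213634-90213663 (minus strand): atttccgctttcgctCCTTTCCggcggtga
Rplp2, chr7:141447636-141447665 (plus strand): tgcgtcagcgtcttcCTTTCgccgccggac
Rpl14, chr9:120571502-120571531 (plus strand): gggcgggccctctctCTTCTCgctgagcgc
Rpl35, chr2:39005117-39005146 (minus strand): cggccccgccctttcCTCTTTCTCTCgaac
Rpl38, chr11:114668565-114668594 (plus strand): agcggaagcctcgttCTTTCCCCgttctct

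The windows also held promoter letters that the family is known for. CCGGAAG, the core bound by ETS family activators, was found on either strand in 20 of 51 windows (39.2%), against 8.86% of all windows. The palindrome CTCGCGAG stood in 7 windows of 6 genes (13.7%), against 0.919%. TATAAA, the TATA box, stood in 6 windows (11.8%), against 13.6%. TGACNNNGC, the core letters of the antioxidant response element through which the activator Nrf2 works, stood in 11 windows of 10 genes (21.6%), against 12.4%. The genes were Rpl13a, Rpl14, Rpl22l1, Rpl3l, Rplp0, Rps16, Rps25, Rps28, Rps3 and Rps6. A match describes letters, not a bound site. The stretches before the starts of Rpl38 and Rps28 are shown, from 135 bases before the start to 15 bases from it on, because these genes had the largest differences between the ranges of animal numbers described further on. The capitals mark CCGGAAG in Rpl38 and CTCGCGAG in Rps28, and the Rpl38 start used is not the outermost start of that gene in RefSeq.
Rpl38, chr11:114668445-114668594 (plus strand): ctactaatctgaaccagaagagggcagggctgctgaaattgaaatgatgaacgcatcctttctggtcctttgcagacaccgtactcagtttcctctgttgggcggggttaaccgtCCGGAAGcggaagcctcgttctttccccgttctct
Rps28, chr17:33824548-33824697 (minus strand): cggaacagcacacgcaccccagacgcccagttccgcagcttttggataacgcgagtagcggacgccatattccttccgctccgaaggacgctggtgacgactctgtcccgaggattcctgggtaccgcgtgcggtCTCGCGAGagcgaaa

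None of the 49 genes passed a threshold between the genotypes. Every value below is a log2 ratio, in which 0 is about the median liver for that gene, and a gene is the mean of its probe sets. The levels of different mRNAs cannot be compared on this scale. The median log2 fold change of txnrd1 cond/- albCre1 over txnrd1 cond/+ albCre0 livers was 0.07 over the 49 genes and 0.00 over all genes, with 33 of the 49 above 0 and 16 below (51.1% of all genes were above 0). Without animal 80 the median of the 49 was -0.01. In limma, 0 of 49 reached a Benjamini-Hochberg adjusted p of 0.05 with a 1.5-fold difference, against 0.0824% of all genes (15 genes). At an unadjusted p of 0.05 with no fold minimum, 0 were higher and 0 were lower, against 1.71% and 0.605% of all genes, or 2.32% in either direction. With a 1.5-fold difference and an unadjusted p of 0.05, the thresholds named in the methods, the count was 0, against 0.654%. In 0 genes did all 4 livers of one genotype lie above all 4 of the other, against 1.13% of all genes in the higher and 0.583% in the lower direction.

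The precision was enough to bound most of these differences. All 49 fold changes were under 1.5-fold and 47 were under 1.2-fold in either direction. For 35 of 49 genes the whole 95% interval lay within 1.5-fold either way, which held for 82.5% of all genes. The intervals of the other 14 reached past it, so a 1.5-fold difference in those was not bounded by 4 livers against 4. On the same arrays Nqo1, a quinone reductase that Nrf2 activates, stood at 0.68, 0.65, 1.44 and 0.79 in txnrd1 cond/- albCre1 livers, against -1.41, -1.98, -1.21 and -2.13 in txnrd1 cond/+ albCre0 livers. Its log2 fold change was 2.58 (SE 0.24, limma adjusted p = 0.0058), larger than that of any of the 49 genes. The 3 probe sets of Txnrd1 ran in different directions (log2 fold changes 1.11, -0.71 and -0.41, limma adjusted p = 1.00 each, adjusted over probe sets and not over genes). Their positions relative to the exons that Cre removes are unknown here, so they do not check the labels.

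**Figure D1:**
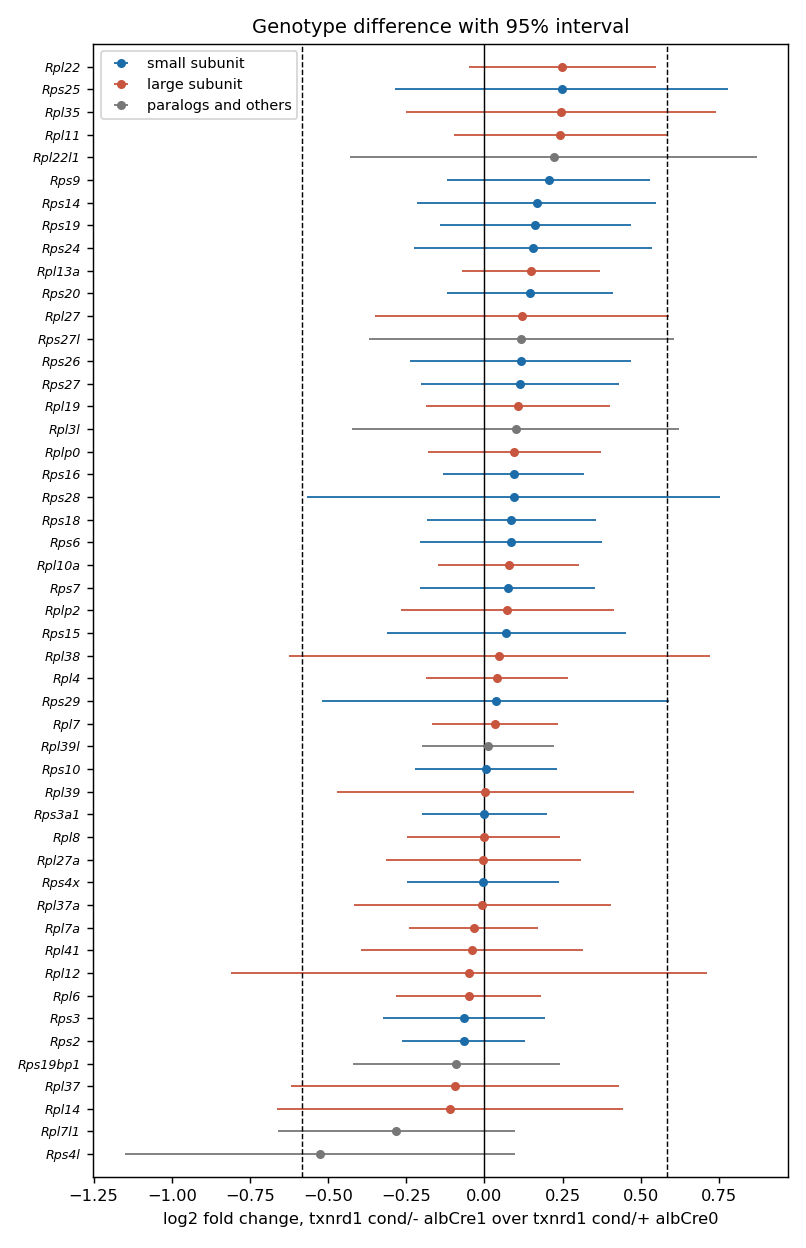
Log2 fold change of txnrd1 cond/- albCre1 over txnrd1 cond/+ albCre0 livers (x axis) for each of the 49 genes (y axis), with points for limma's estimate, bars for its 95% interval and dashed lines at 1.5-fold either way. All points lie between the dashed lines, and all 49 intervals cover 0.

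The 20 genes of the small subunit had a median log2 fold change of 0.09, from -0.07 for Rps2 to 0.25 for Rps25. Values are given from here on for animals 69, 72, 73 and 81 of the txnrd1 cond/- albCre1 livers and for animals 70, 71, 80 and 82 of the txnrd1 cond/+ albCre0 livers, in that order. Rps6, whose protein is phosphorylated by the S6 kinases below mTOR, stood at -0.01, -0.29, -0.01 and 0.10 in txnrd1 cond/- livers, against -0.04, -0.37, 0.06 and -0.20 in txnrd1 cond/+ livers. The lowest liver was animal 72 in txnrd1 cond/- and animal 71 in txnrd1 cond/+, and the groups overlapped, with a log2 fold change of 0.08 (95% interval -0.21 to 0.37).

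Rps2, which lines the channel where mRNA enters, was among the 3 steadiest of the 49 genes. It stood at -0.04, -0.05, 0.00 and 0.01 in txnrd1 cond/- livers, against 0.02, -0.04, 0.13 and 0.07 in txnrd1 cond/+ livers (log2 fold change -0.07, 95% interval -0.26 to 0.13). Rps3a1, another protein of the small subunit, was as steady, at -0.02, -0.06, 0.00 and 0.12 in txnrd1 cond/- livers, against 0.00, -0.02, 0.07 and -0.02 in txnrd1 cond/+ livers. The means of the genotypes were 0.01 ± 0.08 and 0.01 ± 0.04 (SD, n = 4 each).

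Rps25, which some viral RNAs need to recruit the ribosome without a cap, had the largest positive difference of the small subunit, but single livers set it. Its values were 0.05, -0.42, 0.39 and 0.05 in txnrd1 cond/- livers, against 0.15, -0.13, -0.03 and -0.90 in txnrd1 cond/+ livers. Animal 82 alone lay far below the rest, and the interval ran from -0.29 to 0.78. Rps27 stood at 0.12, -0.01, 0.00 and -0.14 in txnrd1 cond/- livers, against 0.02, -0.18, -0.47 and 0.16 in txnrd1 cond/+ livers (log2 fold change 0.11, SE 0.14). The groups of both genes overlapped.

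The 22 genes of the large subunit had a median log2 fold change of 0.04, from -0.11 for Rpl14 to 0.25 for Rpl22. The acidic stalk recruits elongation factors: Rplp0 anchors it to the ribosome, and Rplp2 is a component of its flexible arms. Rplp0 stood at -0.02, -0.09, 0.02 and 0.42 in txnrd1 cond/- livers, against -0.01, -0.02, -0.06 and 0.05 in txnrd1 cond/+ livers (log2 fold change 0.10, SE 0.12). Rplp2 stood at 0.00, 0.08, -0.02 and -0.20 in txnrd1 cond/- livers, against 0.03, 0.24, -0.45 and -0.25 in txnrd1 cond/+ livers (log2 fold change 0.07, SE 0.15). The stalk genes parted in animal 81, where Rplp0 had its highest value and Rplp2 a low one.

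Rpl11 joins Rpl5 and the 5S RNA in a particle that can also bind Mdm2, the ligase that turns over p53. It stood at -0.01, 0.10, 0.15 and -0.17 in txnrd1 cond/- livers, against 0.03, -0.01, -0.58 and -0.34 in txnrd1 cond/+ livers. Animals 80 and 82 held the low values, the groups overlapped, and the log2 fold change was 0.24 (95% interval -0.10 to 0.58). Rpl35, near the mouth of the exit tunnel, had a log2 fold change of the same size, 0.24 (95% interval -0.25 to 0.74). Its values were 0.07, 0.13, -0.02 and -0.21 in txnrd1 cond/- livers, against 0.03, 0.06, -0.996 and -0.09 in txnrd1 cond/+ livers, so animal 80 alone lay far from the rest. Rpl22, on the surface of the large subunit and needed for the development of alpha-beta T cells in mice, stood at 0.20, -0.01, 0.10 and 0.03 in txnrd1 cond/- livers, against 0.18, -0.15, -0.40 and -0.31 in txnrd1 cond/+ livers. Animals 71, 80 and 82 lay below all of its txnrd1 cond/- livers, and animal 70 lay among them (log2 fold change 0.25, SE 0.13, limma adjusted p = 1.00).

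The lowest genotype differences of the large subunit were those of Rpl14 and Rpl37, both with wide spreads. Rpl14 stood at 0.18, -0.74, -0.08 and 0.08 in txnrd1 cond/- livers, against 0.35, -0.43, 0.32 and -0.36 in txnrd1 cond/+ livers (log2 fold change -0.11, SE 0.25). Rpl37 stood at -0.12, 0.09, 0.04 and -0.24 in txnrd1 cond/- livers, against -0.06, 0.28, -0.67 and 0.59 in txnrd1 cond/+ livers (log2 fold change -0.09, SE 0.23). The SD within a genotype reached 0.42 for Rpl14 and 0.54 for Rpl37. Rpl12, at the base of the stalk, had the widest spread of the 49 genes (SD 0.55 over 8 livers). It stood at -0.22, -1.16, 0.26 and 0.19 in txnrd1 cond/- livers, against 0.25, -0.44, 0.26 and -0.80 in txnrd1 cond/+ livers, and its interval ran from -0.81 to 0.71. Animals 72, 71 and 82, low in Rpl12, were also the lowest in Rpl14. Each of these 3 genes was read by 1 probe set.

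Some ribosomal proteins have a second gene, and the pairs were compared side by side. Rpl7 stood at -0.04, -0.03, 0.03 and 0.14 in txnrd1 cond/- livers, against -0.05, 0.04, 0.00 and -0.03 in txnrd1 cond/+ livers, a log2 fold change of 0.03 (95% interval -0.17 to 0.24). Rpl7l1, a relative of Rpl7 that works in the assembly of the large subunit, stood at -0.12, -0.43, 0.18 and -0.01 in txnrd1 cond/- livers, against 0.06, -0.08, 0.56 and 0.22 in txnrd1 cond/+ livers. Its log2 fold change was -0.28 (95% interval -0.66 to 0.10), and its 3 probe sets gave -0.30 to -0.26. The SD over 8 livers was 0.29 for Rpl7l1 and 0.06 for Rpl7, the groups of each overlapped, and neither passed a threshold.

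Rpl22l1, the paralog that substitutes for Rpl22 where that is missing, stood at 0.02, -0.01, 0.03 and -0.54 in txnrd1 cond/- livers, against 0.20, 0.01, -1.27 and -0.33 in txnrd1 cond/+ livers (log2 fold change 0.22, SE 0.29). Animals 80, 81 and 82 were its 3 lowest livers. Rpl39, a small protein in the wall of the exit tunnel, had a log2 fold change of 0.00 (SE 0.21), with 0.10, -0.08, 0.14 and -0.66 in txnrd1 cond/- livers, against 0.13, 0.08, -0.61 and -0.11 in txnrd1 cond/+ livers. Rpl39l, its testis-enriched paralog, was steadier, at -0.10, 0.15, 0.02 and -0.02 in txnrd1 cond/- livers, against -0.02, 0.06, -0.06 and 0.03 in txnrd1 cond/+ livers (log2 fold change 0.01, SE 0.09). A steady ratio does not show that liver expresses the gene, since the ratios keep no level.

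Rps27l, a p53 target in human cells and the paralog of Rps27, stood at 0.04, 0.04, -0.03 and -0.23 in txnrd1 cond/- livers, against 0.14, 0.21, -0.88 and -0.13 in txnrd1 cond/+ livers (log2 fold change 0.12, SE 0.22). Rpl3l, the muscle form of Rpl3, stood at 0.07, 0.34, -0.42 and -0.08 in txnrd1 cond/- livers, against -0.30, 0.22, -0.69 and 0.28 in txnrd1 cond/+ livers (log2 fold change 0.10, SE 0.23). Both pairs of groups overlapped. The largest difference of all 49 in this fit was that of the pseudogene Rps4l, at 0.42, -0.87, -0.40 and -0.08 in txnrd1 cond/- livers, against -0.15, 0.09, 0.77 and 0.47 in txnrd1 cond/+ livers. It was lower in txnrd1 cond/- livers on average, with animal 69 among the high livers (log2 fold change -0.53, 95% interval -1.15 to 0.10, limma adjusted p = 1.00). With array weights it was -0.20, no longer the largest, and without animal 72 it was -0.31. Rps19bp1 stood at 0.08, -0.21, 0.18 and -0.12 in txnrd1 cond/- livers, against 0.21, -0.11, 0.36 and -0.17 in txnrd1 cond/+ livers (log2 fold change -0.09, SE 0.15).

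Probe sets that read the same gene were compared with each other. Of the 49 genes, 26 had 1 probe set and 23 had several, up to 6. The widest disagreements were those of Rpl41, from -0.28 to 0.09, of Rpl22, from 0.13 to 0.47, and of Rps3, from -0.25 to 0.07. A further 110 probe sets name a ribosomal protein gene together with other symbols, often of pseudogenes, and cannot be tied to a gene. Their genotype differences had a median of 0.04 and ran from -0.25 to 0.44, with 0 at an unadjusted p of 0.05.

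Genes of the family that are in common use as reference mRNAs were compared as a set. The 8 that were measured (Rplp0, Rpl4, Rpl13a, Rpl19, Rpl27, Rps16, Rps18 and Rps29) had genotype differences of 0.04 to 0.15, with a median of 0.09. Their spread between livers was less alike, with an SD over 8 livers of 0.10 for Rpl4 and 0.39 for Rps29. Over the 49 genes the median SD was 0.22, against 0.20 over all genes, and 28 of the 49 lay above the median of all genes. The SD was lowest in Rps2, Rps3a1 and Rpl7, at 0.06 each, and highest in Rpl12, at 0.55, and Rps4l, at 0.52.

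**Figure D2:**
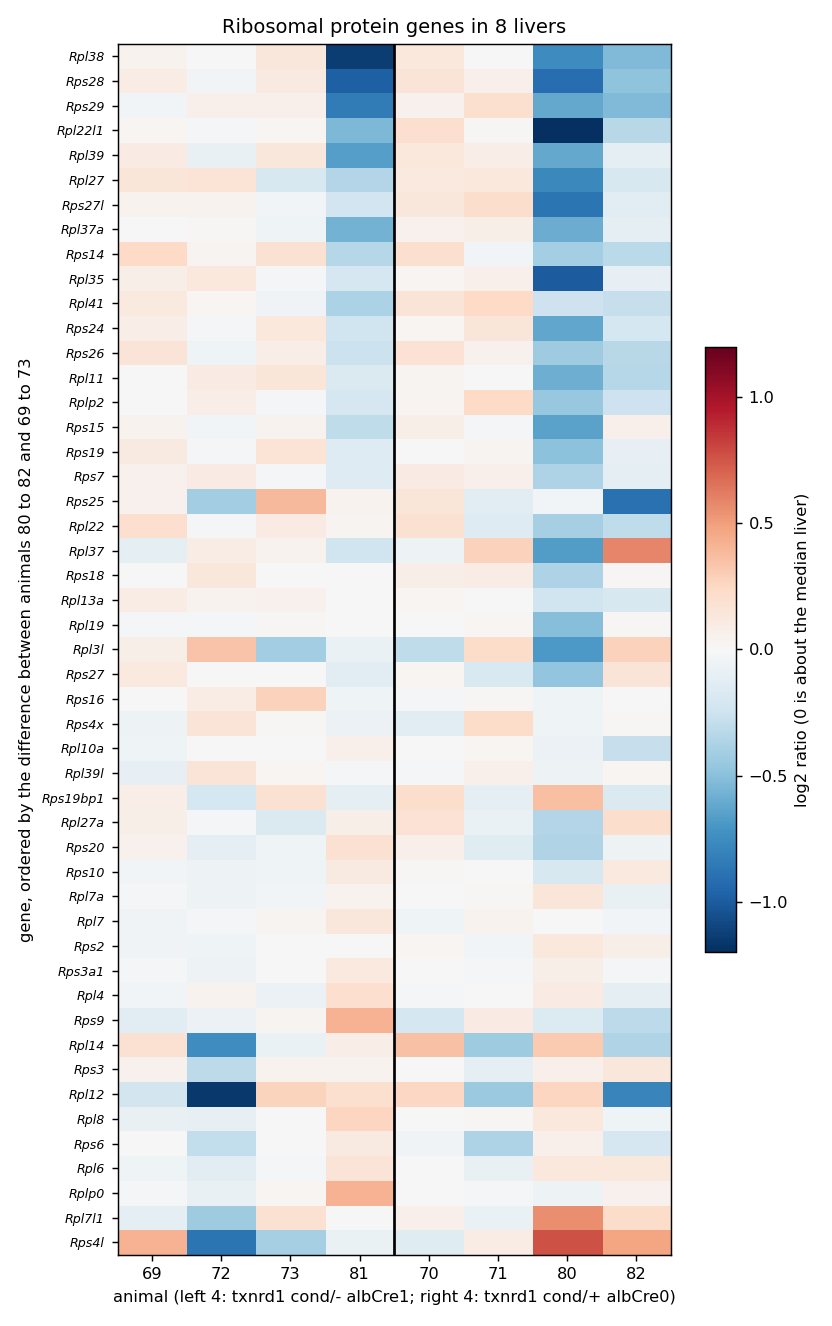
Log2 ratio (colour, 0 is about the median liver) of each of the 49 genes (rows) in each liver (columns), with animals 69, 72, 73 and 81 of txnrd1 cond/- albCre1 left of the line and animals 70, 71, 80 and 82 of txnrd1 cond/+ albCre0 right of it. The rows are ordered by the difference between animals 80 to 82 and animals 69 to 73, and the darkest blue cells of the upper rows lie in the columns of animals 80 and 81.

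The livers also differed by animal number. The labels number the animals 69 to 73 and 80 to 82, each range holds both genotypes, and what the numbers stand for is not stated in the labels or methods. The median of the 49 genes was -0.05, -0.35 and -0.11 in animals 81, 80 and 82, against -0.01 to 0.03 in the 5 animals of the lower range, while the median of all genes lay within 0.01 of 0 in every liver. Animal 80 was the lowest of the 8 livers for 24 of 49 genes and lay under -0.5 for 15 of them. Animal 81 was the lowest for 5 genes and the highest for 10, so the genes did not move as a block there. Animal 82 was the lowest for 5 genes, and animal 72, of the lower range, for 11.

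With the genotype in the same limma fit, the log2 difference of animals 80 to 82 minus animals 69 to 73 had a median of -0.13 over the 49 genes (-0.07 without animal 80) and -0.01 over all genes. At an unadjusted p of 0.05, 17 of 49 were lower in animals 80 to 82 and 0 were higher, against 3.1% and 3.08% of all genes. After Benjamini-Hochberg adjustment with a 1.5-fold difference, 0 of 49 were lower, against 0.011% of all genes, and 0 were higher, against 0%. In 16 genes all 3 livers of the higher range lay below all 5 of the lower range, against 2.64% of all genes, and in 1, Rpl6, all 3 lay above, against 2.72%. The 17 genes were 7 of the small subunit (Rps7, Rps14, Rps19, Rps24, Rps26, Rps28 and Rps29), 8 of the large subunit (Rpl11, Rpl27, Rpl35, Rpl37a, Rpl38, Rpl39, Rpl41 and Rplp2) and the paralogs Rpl22l1 and Rps27l.

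The 4 genes past 1.5-fold in this comparison are given in full, chosen after their values were seen. Rpl38, which in mice is needed for the translation of some Hox mRNAs, stood at -1.14 in the txnrd1 cond/- liver of animal 81 and at -0.76 and -0.53 in the txnrd1 cond/+ livers of animals 80 and 82. Its 5 livers of the lower range lay between -0.01 and 0.14. The log2 difference was -0.92 (SE 0.14, limma adjusted p = 0.098). Rps28, a small protein near the mRNA exit, stood at -0.98 in animal 81 and at -0.92 and -0.48 in animals 80 and 82, against -0.04 to 0.16 in animals 69 to 73 (log2 difference -0.90, SE 0.13, limma adjusted p = 0.098). Rps29, a zinc-binding protein of the small subunit, stood at -0.84 in animal 81 and at -0.62 and -0.53 in animals 80 and 82, against -0.03 to 0.19 in animals 69 to 73 (log2 difference -0.77, SE 0.10, limma adjusted p = 0.083). Rpl22l1 differed by -0.75 (SE 0.21, limma adjusted p = 0.49). In all 4 the ranges did not overlap, in either genotype.

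The other genes of the 17 differed by -0.57 for Rpl39 to -0.27 for Rps7. Rpl41, the shortest ribosomal protein, stood at -0.38 in animal 81 and at -0.25 and -0.27 in animals 80 and 82, against -0.04 to 0.24 in animals 69 to 73. Rps26, which touches mRNA at the exit, stood at -0.25 in animal 81 and at -0.43 and -0.33 in animals 80 and 82, against -0.05 to 0.18. Rps14, whose loss marks the 5q- syndrome in humans, differed by -0.47, and Rps19, the gene most often mutated in human Diamond-Blackfan anemia, by -0.28. Of the 12 measured genes whose mutation causes that anemia in humans, 9 were among the 17. For scale, 17 of the 49 genes and 3.1% of all genes were lower at an unadjusted p of 0.05. This list and those that follow are small and share genes. Of the 6 measured genes around the exit tunnel (Rpl4, Rpl19, Rpl22, Rpl35, Rpl38 and Rpl39), 3 were among the 17, with a median difference of -0.34. Of the 3 measured genes whose proteins bind Mdm2 (Rpl11, Rps7 and Rps3), 2 were. Of the 4 measured genes of mRNA entry and decoding (Rps2, Rps3, Rps6 and Rps15), 0 were, and their median difference was 0.11. The positive end held Rps4l at 0.46, Rpl7l1 at 0.28, Rplp0 at 0.20 and Rpl6 at 0.19, none at an unadjusted p of 0.05.

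**Figure D3:**
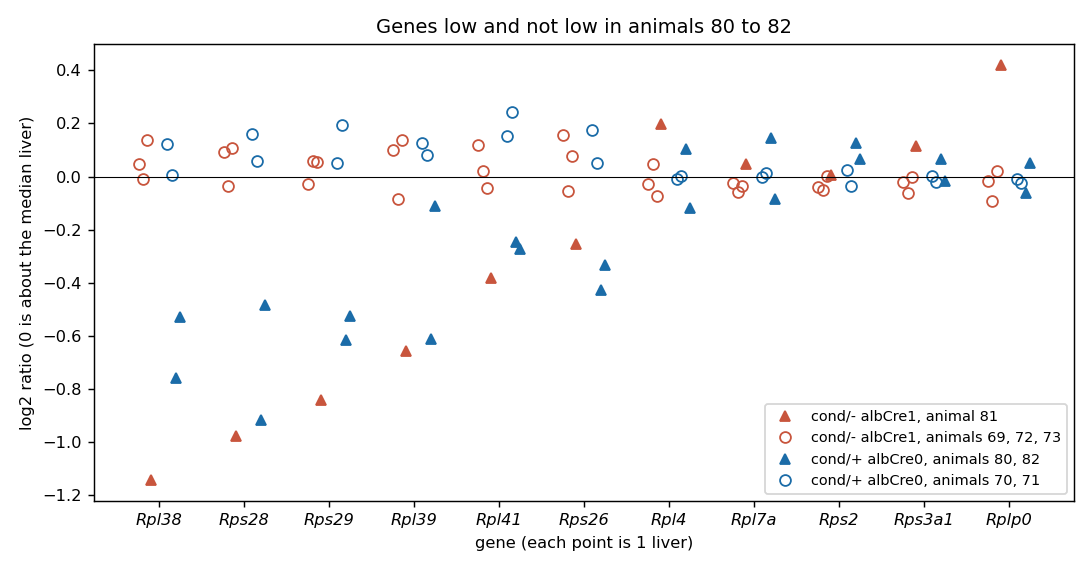
Log2 ratio (y axis, 0 is about the median liver) of 6 genes that were low and 5 that were not in animals 80 to 82, picked after their values were seen, with 1 point for each liver, filled triangles for animals 80 to 82 and open circles for animals 69 to 73, and with txnrd1 cond/- albCre1 left of txnrd1 cond/+ albCre0. For Rpl38, Rps28 and Rps29 the 3 triangles lie at -0.48 or below and the circles at -0.04 or above, while for Rps2 and Rps3a1 all 8 points lie between -0.06 and 0.13.

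The comparison by animal number was repeated with the probe sets whose names carry no letter. On these arrays a letter in the name of a probe set marks one that may read several transcripts, of the same gene or of other genes. These kinds were not told apart in the counts here, so a lettered name alone does not show that other genes are read. The only probe set of Rpl38 and all those of Rps29 carry the letter x. Those of Rps28 carry x or a, and that of Rpl22l1 carries a. Whether the low values of Rpl38, Rps28, Rps29 and Rpl22l1 in animals 80 to 82 come from these genes alone was not tested. Of the 17 genes, 12, among them Rpl38, Rps28, Rps29 and Rpl22l1, have no probe set without such a letter. For the 26 genes that have one, 5 were lower at an unadjusted p of 0.05 when read by all their probe sets, with a median difference of -0.06. Read by the unlettered ones alone, 4 of the 26 were lower (2.76% of all genes), with a median of -0.03. Rpl27 and Rpl39 were lower in both readings. Read by unlettered probe sets alone, Rpl35 and Rps24 stood at 0.22 and 0.07, and Rpl41 at -0.14 (limma unadjusted p = 0.50). Rps15 at -0.33 and Rpl22 at -0.48 were lower in that reading only. Single probe sets were compared by plain differences of means, without the genotype in a fit. By that measure the probe sets of Rps28 all ran low, from -1.01 to -0.67, as did those of Rps29, from -0.85 to -0.50. By the same measure those of Rps24 ran from -0.73 to 0.35 and those of Rpl35 from -0.70 to 0.18. With the genotype in the limma fit, the 110 probe sets that name several genes had a median difference of -0.18. At an unadjusted p of 0.05, 30 were lower and 1 was higher, against 2.85% of all probe sets lower.

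The genotype differences were also read within each range of animal numbers. Among animals 69 to 73 the median of the 49 differences between 3 txnrd1 cond/- and 2 txnrd1 cond/+ livers was -0.02. There all txnrd1 cond/- livers lay below all txnrd1 cond/+ livers for 6 genes, against 6.12% of all genes, and above them for 1, against 6.75%. Among animals 80 to 82, with 1 txnrd1 cond/- liver against 2 txnrd1 cond/+ livers and no test, the differences ran from -0.70 for Rps4l to 0.65 for Rps9, both past 1.5-fold. The next in size were Rps25 at 0.51, Rpl38 at -0.50, Rpl12 at 0.46 and Rplp0 at 0.43. With the number range in the fit, the median genotype difference of the 49 genes was 0.01, and again 0 passed at an unadjusted p of 0.05.

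The other genes of translation were read for comparison, and 0 genes of these lists differed between the genotypes at an unadjusted p of 0.05. As medians, 7 elongation factors had a log2 fold change of -0.04, 32 initiation factors 0.02, 58 factors of ribosome assembly -0.08, 19 genes of the mTOR pathway to TOP mRNAs 0.04, and 76 proteins of the mitochondrial ribosome 0.02. Rpsa and Fau, ribosomal proteins whose symbols fall outside the rule, had differences of 0.10 and 0.08.

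By animal number the lists were not alike. The median difference of animals 80 to 82 minus animals 69 to 73 was -0.09 over the mitochondrial ribosomal proteins, with 14 of 76 lower and 1 higher at an unadjusted p of 0.05, where 3.1% of all genes were lower and 3.08% higher. The lowest were Mrps33 at -0.73, Mrps18c at -0.69 and Mrps16 at -0.63. It was 0.09 over the initiation factors, with 2 higher (Eif3i at 0.34 and Pabpc1, which binds the poly(A) tail, at 0.36) and 0 lower. It was 0.07 over the assembly factors, with 1 higher and 1 lower (Nop10, of the particles that form pseudouridine in ribosomal RNA, at -0.70). It was 0.01 over the elongation factors, with 0 in either direction, and 0.07 over the mTOR pathway genes, with 2 higher and 0 lower. Fau, which is made fused to a ubiquitin-like protein, differed by -0.34 (limma adjusted p = 0.71).

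**Figure D4:**
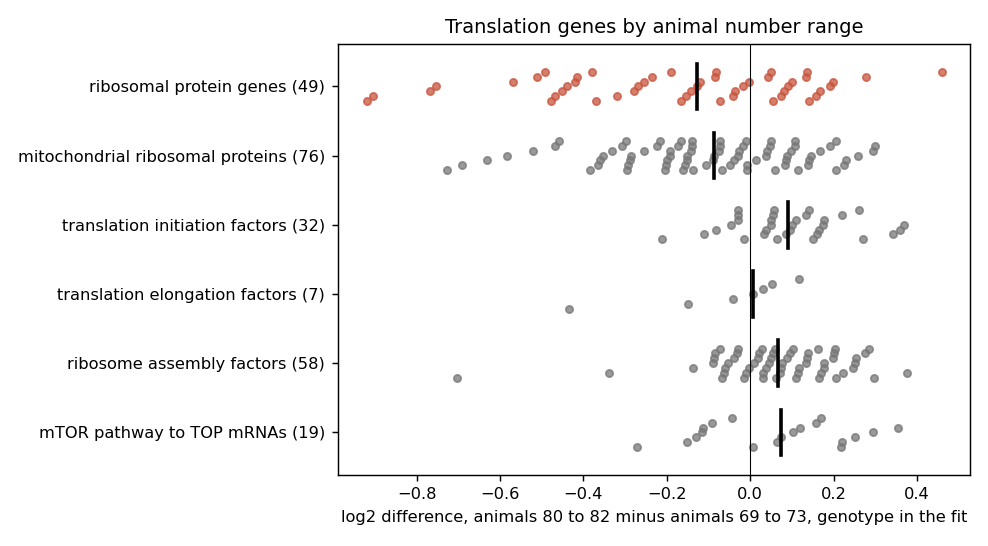
Log2 difference of animals 80 to 82 minus animals 69 to 73, with the genotype in the fit (x axis), for each gene of 6 lists (rows, number of genes in brackets), with points for genes and bars for the medians. The points under -0.7 belong to 4 ribosomal protein genes, to Mrps33 and to Nop10, and the medians of the initiation, assembly and mTOR lists lie above 0.

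The arrays' own controls and the markers of liver cell types are given beside these values. The mean of 24 poly-A control probe sets was 1.06, 0.01 and -0.04 in animals 81, 80 and 82. In animals 69 to 73 it was -0.58 to 0.59. The mean of 18 hybridization control probe sets was -0.42, 0.35 and -0.19 in the same order, against -0.51 to 0.43. The difference between 5′ and 3′ actin probe sets was 0.23, 0.17 and -0.03, against -0.09 to 0.16. That of the Gapdh probe sets was 0.10, 0.04 and -0.04, against -0.13 to 0.01. The 9 measured hepatocyte markers had a median of -0.04, 0.06 and 0.02 in animals 81, 80 and 82, against -0.04 to 0.09. Medians of the marker lists differed by -0.26 for stellate cells (2 of 7 genes lower at an unadjusted p of 0.05), by -0.12 for neutrophils (2 of 7, S100a8 at -2.24 and S100a9 at -1.73), by -0.07 for erythroid cells, and by -0.01 to 0.11 for Kupffer, endothelial and bile duct cells and lymphocytes. Their part in the differences of the ribosomal protein genes was not tested. Since the ratios keep no level, the presence of a cell type could not be checked by its markers. In animal 71, a txnrd1 cond/+ liver, 6 pancreas acinar genes had a median of 4.28, against -0.24 to 0.05 in the other 7 livers. Without that animal 0 of the 49 genes passed at an unadjusted p of 0.05 between the genotypes. In animals 80 to 82, 13 of the 49 were then lower, against 2.71% of all genes.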

How the data were processed

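Each liver was hybridized to 1 array. The authors deposited a linear ratio for each probe set, in which 1 is close to its own median liver. The methods name GeneSpring and the submitters' processing notes name RMA, without a version. No level or signal is kept, so the methods' minimum signal could not be applied. The file lists 45101 probe sets with 5 empty values. Of these, 64 controls were left out, 34945 carry 1 symbol and 932 several, named from the platform's annotation and RefSeq. The members and gene lists were chosen with earlier results of these data known. Ratios were put on the log2 scale, averaged per gene and compared with limma 3.58.1 (lmFit, eBayes, 2-sided) in R 4.3.3, with Benjamini-Hochberg adjustment over 18193 genes. The probe sets of Txnrd1 and those that name several genes were fitted, and their p adjusted, over the 45037 probe sets other than controls. A call needed an adjusted p of 0.05 and 1.5-fold. The number range of the animals (80 to 82 or 69 to 73) was then fitted beside the genotype. Values per animal are given for the 5 largest differences in each direction, the 3 widest and 3 narrowest spreads, the stalk, Rps6, Rpl11 and the paralogs with their parents. The code was tested on simulated data. Alternatives were scaling, choice of probe set, array weights, the controls as covariates and leaving out each animal. Those of the number range, the unnamed probe sets, the members without Rps4l and Rps19bp1, and animals 69 to 73 alone were added after seeing the data. Depth does not apply to arrays, and their number limits the precision. Sequences were searched with Python 3.11.15, and matplotlib 3.10.9 drew the figures.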

Additional observations from a re-analysis of the deposited data

Results flagged for a closer look

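Within a genotype, 11 of 98 groups of 4 livers held 1 liver far from the other 3 by Dixon's test. Its cutoff passes about 5% of groups of independent, normally distributed values. The groups here share the same livers and are not independent. No share over all genes is given beside the 11, so they are not read as an excess. In txnrd1 cond/- albCre1 livers animal 81 was far below the rest for Rpl38 (-1.14), Rps28 (-0.98), Rps29 (-0.84), Rpl37a (-0.57) and Rpl22l1 (-0.54), where the other 3 livers lay between -0.05 and 0.14. Animal 72 was far below the rest for Rps3 (-0.31) and far above for Rps18 (0.14). In txnrd1 cond/+ albCre0 livers animal 80 was far below the rest for Rpl35 (-0.996), Rps15 (-0.64), Rpl19 (-0.51) and Rps18 (-0.37), where the other 3 lay between -0.09 and 0.09. Of the 11, 9 were low values in animals 80 and 81.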

How the results depend on the processing

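The count past adjustment was 0 under every alternative run. Leaving out 1 animal gave 0 to 1 gene at the methods' thresholds (Rps4l without animal 69 or without animal 70), 0 to 1 higher (Rpl22 without animal 70, log2 fold change 0.37) and 0 to 1 lower at an unadjusted p of 0.05, and 0 to 2 higher and 0 to 1 lower with groups that do not overlap. The median genotype difference then ran from -0.01 without animal 80 to 0.11 without animal 70. For animals 80 to 82, the count lower ran from 13 to 19 and the count higher from 0 to 1. Of all genes, 2.35% to 3.84% were then lower and 1.55% to 4.19% higher. The median of the 49 genes ran from -0.18 without animal 81 to -0.07 without animal 80. Reading each gene by its most variable probe set, 1 gene, Rpl22 (log2 fold change 0.47), was higher in txnrd1 cond/- livers at an unadjusted p of 0.05 in limma. Non-overlapping groups gave 1 gene higher with unlettered probe sets. Among animals 69 to 73 alone they gave 1 higher and 6 lower, against 6.75% and 6.12% of all genes. The genotype counts for the most variable and for the unlettered probe sets have no share over all genes beside them. Unlettered probe sets left 4 genes lower in animals 80 to 82 and a median of -0.027, where only 26 genes have one, of which 5 were lower with all probe sets. The hybridization controls as a covariate gave 1 gene higher in animals 80 to 82, against 4.45% of all genes. Of 405 alternative values of 23 named genes, 49 changed sign, and the lowest adjusted p in limma was 0.99. No paired analysis was possible because the genotypes share no animal numbers.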
